A study of Homo sapiens with 18 samples.

Results

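The thioredoxin system is described here by 10 genes in IMR90 cells, human lung fibroblasts grown as 1 cell line. They are thioredoxin (TXN), its reductases (TXNRD1 and TXNRD2), the 6 peroxiredoxins (PRDX1 to PRDX6) and sulfiredoxin (SRXN1). Members were found by gene symbol among the 56269 rows of the expression table, and all 10 were found. All 10 also passed the minimum for testing, a mean normalized count of 10 over the libraries, as did 13686 rows in total.

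The study asked whether the very long hyaluronan (HA) made by skin fibroblasts of the naked mole-rat (NSF-HA) changes how human cells meet oxidative stress. IMR90 cells in EMEM with 15% FBS were pre-incubated for 6 h with PBS, with intact control NSF-HA (cNSF-HA) or with NSF-HA partly cut by hyaluronidase (fNSF-HA), both at 20 µg/ml. They were collected at that point, or the HA or PBS was taken off before 200 µM tert-butyl hydroperoxide (tBHP), an organic peroxide, was given for 1 h. Cells given tBHP were collected 6 h after its start. Each of the 6 groups had 3 replicates, which gave 18 poly(A) RNA libraries. Because the cells without tBHP were collected earlier, the tBHP response cannot be told apart from the later collection. The study's methods call the replicates biological, and the labels do not say how they were made separate, so p-values measure the spread between these samples.

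Peroxiredoxins are abundant enzymes that reduce peroxides with a reactive cysteine, and most of them are then returned to the reduced form by thioredoxin. Thioredoxin reductases, which carry selenocysteine, recharge thioredoxin with electrons from NADPH. When a peroxide overoxidizes the cysteine of a typical 2-cysteine peroxiredoxin to a sulfinic acid, sulfiredoxin repairs it with ATP. The transcription factor NRF2, which binds antioxidant response elements in DNA, is a known regulator of several of these genes, including TXNRD1, SRXN1, PRDX1 and TXN.

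A pair of sequences bears on the values below. The first is shown because TXNRD1 had the smallest adjusted p of the 10 genes in each tBHP response, and it is the 250 bases before the RefSeq start of TXNRD1 at chr12:104215529-104215778 on the plus strand of GRCh38.p14. Capitals mark a match to TGACNNNGC, the core of the antioxidant response element. The second is shown because most other SRXN1 exon bases lie in an overlapping gene, and it is the coding part of SRXN1 exon 1, chr20:652976-653185 on the minus strand of GRCh38 (GENCODE 29). Capitals mark its start codon.
TXNRD1 upstream: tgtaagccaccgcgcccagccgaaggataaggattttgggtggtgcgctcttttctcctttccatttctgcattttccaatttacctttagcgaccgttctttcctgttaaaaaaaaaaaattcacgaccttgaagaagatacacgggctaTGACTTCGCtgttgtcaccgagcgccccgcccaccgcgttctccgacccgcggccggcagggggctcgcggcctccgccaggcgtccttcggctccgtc
SRXN1 exon 1, coding part: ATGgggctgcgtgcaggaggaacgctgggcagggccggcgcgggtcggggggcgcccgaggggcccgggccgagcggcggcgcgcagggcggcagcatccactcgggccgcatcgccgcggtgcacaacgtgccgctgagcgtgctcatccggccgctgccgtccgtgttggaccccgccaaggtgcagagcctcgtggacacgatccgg

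The TXNRD1 match spanned bases -99 to -91, counting the first transcribed base as 0, and read TGACTTCGC. On the opposite strand a second match, TGACGGAGC, reached from -8 to the start itself. A second RefSeq start of TXNRD1 also had a match on the opposite strand, TGACAAAGC, at -102 to -94. RefSeq promoter windows, from 250 bases before to 50 after a start, were found for 8 of the 10 genes (not PRDX1 and PRDX6). Searched on both strands, the letters were in 2 of the 12 windows of these genes, both of TXNRD1, and in 4687 of 35116 windows of all genes (13.3%). The search describes letters only, and it covers nothing outside these windows.

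Sulfiredoxin needs a remark on what its count holds. SRXN1 (ENSG00000271303.1, chr20:646615-653370) has 2 exons of 395 and 2303 bases. A read-through gene model on the same strand, AL121758.1, covers 2292 bases of the second exon, so only 406 of 2698 exon bases (15.0%) belong to SRXN1 alone. The coding exon part printed above had a GC content of 76.7%, against 49.2% for exon 2. The SRXN1 row held 7 to 47 reads per library in libraries of 20261103 to 26287660 reads. How the counting program treated reads in overlapping genes was not given in the sources used here, so the SRXN1 value is the count of this row and not the full level of its transcript.

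**Figure D1:**
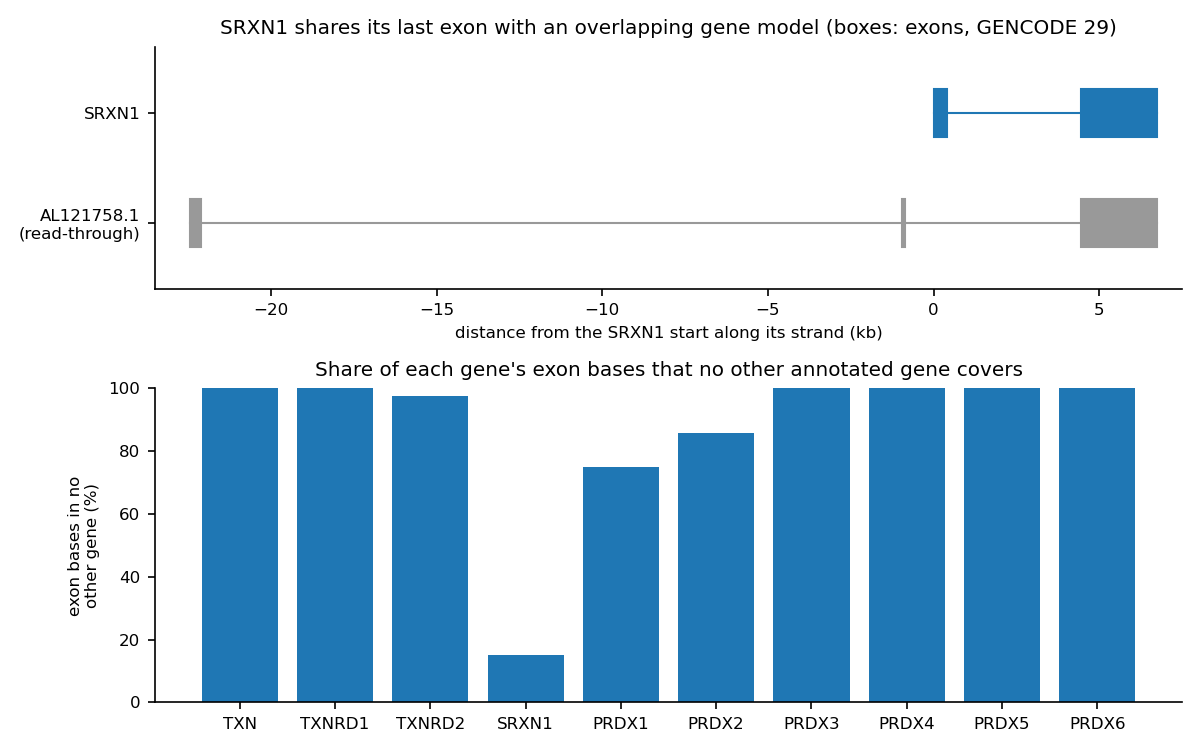
Top, exons of SRXN1 and of the read-through model AL121758.1 by distance from the SRXN1 start in kb. Bottom, percent of exon bases that no other annotated gene covers, which was 15.0% for SRXN1 and at least 75.1% for the other 9 genes.

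The other members were less affected by overlap. PRDX1 (chr1:45511036-45523047) shared 379 exon bases with MMACHC, and PRDX2 (chr19:12796820-12801859) shared 296 with AC018761.2. The library kit does not mark strand, so reads in shared bases cannot be told apart. TXN, TXNRD1, PRDX3, PRDX4, PRDX5 and PRDX6 shared none. Of 17 rows for processed copies of these genes, 8 were at 0 in every library, and the highest, PRDX2P3, had a mean of 0.739.

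The libraries had the profile of fibroblasts. All 8 fibroblast markers were above a mean of 10, and their summed normalized count was 588985 to 610836 without tBHP and 452013 to 717947 after it. The epithelial markers KRT5 and SFTPC and the endothelial marker CDH5 were at 0 in all libraries, and the general epithelial markers EPCAM and CDH1 were low, at up to 5.47 and 4.38 normalized counts. The summed epithelial and leukocyte markers reached at most 9.85 and 11.3, and the endothelial sum, nearly all VWF, was 3.73 to 14.8 without tBHP and 13.1 to 25.1 after it. The median spread between replicates (SD of log2 values) was 0.076 without tBHP and 0.21 after it. The standard errors and intervals below use 1 pooled spread per gene over all 6 groups, so they are too narrow for stressed and too wide for unstressed cells where a gene's spread differed in this way.

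Before stress, the genes covered a wide range of levels. Per kb of exon that no other gene covers, PRDX1, a cytosolic peroxiredoxin, was highest in PBS cells at 8070.3 ± 239 normalized counts (SD, n = 3). TXN followed with 3919.7 ± 117, then PRDX6 with 2832 ± 34.8, PRDX5 with 1929 ± 78.9 and TXNRD1 with 1664 ± 18.6. PRDX2 (1141 ± 8.49) and PRDX4 (1107 ± 37.9) were neighbours that did not differ beyond their spread, and PRDX3 stood just under them at 1004 ± 34.4. TXNRD2, which encodes the mitochondrial reductase, had 57.9 ± 4.61 and SRXN1 had 21.6 ± 7.16, far under the rest. These levels assume that reads come only from unshared bases, and shared reads counted for a gene would lower its level.

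After tBHP, TXNRD1 rose in that order. In PBS cells it reached 4925 ± 185 per kb, which did not differ beyond the spread from TXN at 4909 ± 163. PRDX1 was still highest at 11784 ± 888, and PRDX3 was at 639 ± 69.8 per kb.

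**Figure D2:**
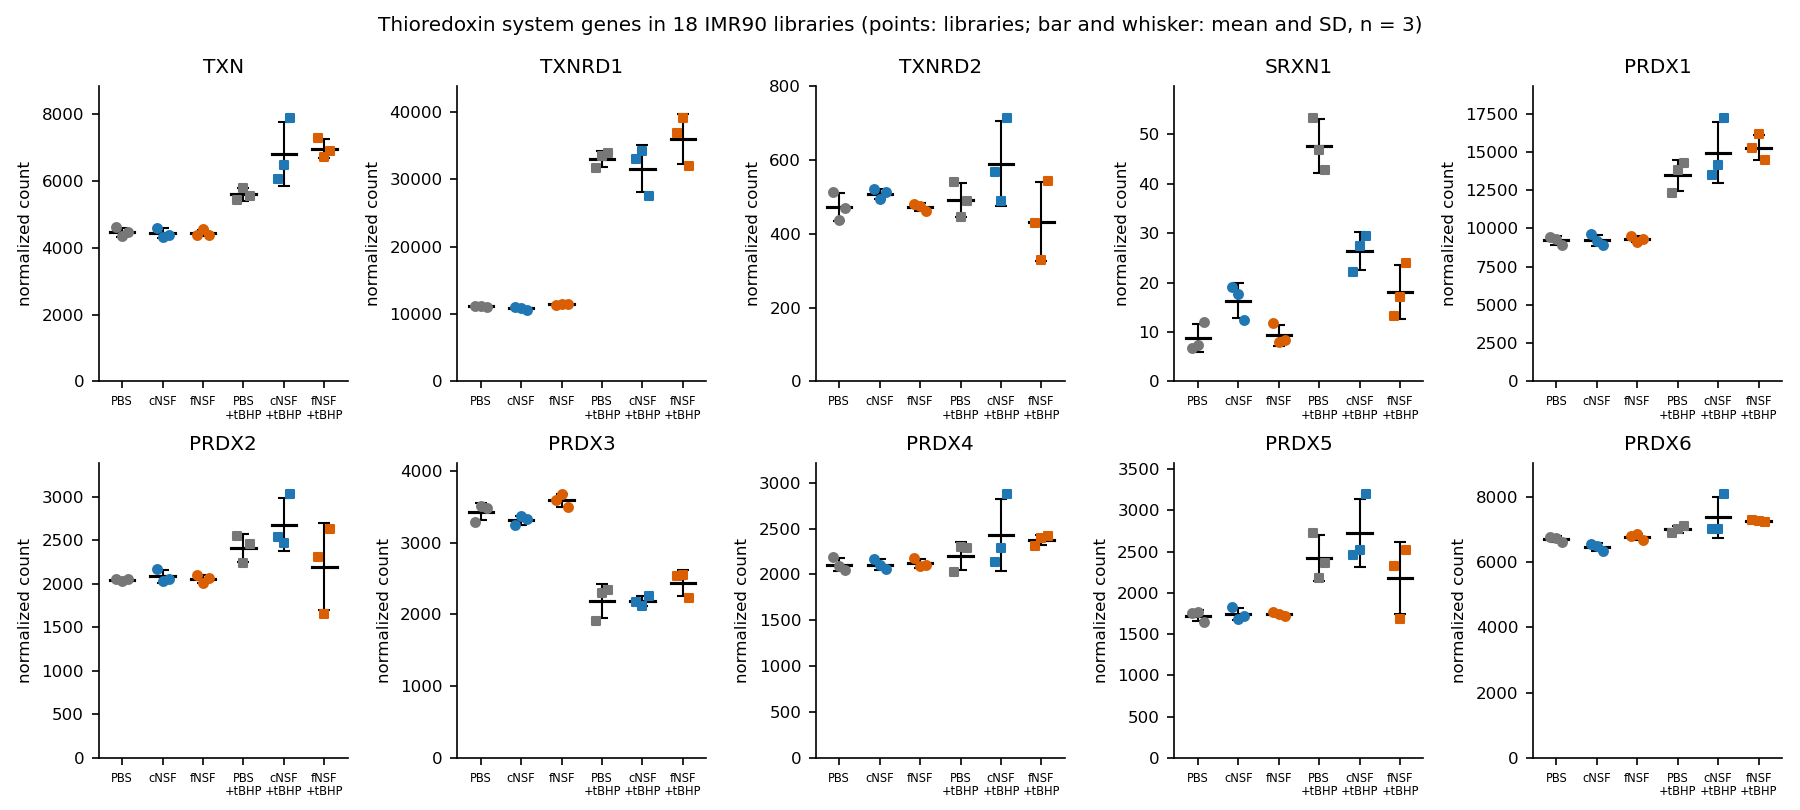
Normalized count (vertical axes, from 0) of the 10 genes in each of the 18 libraries, by group, with the mean and SD of 3. TXNRD1 libraries sit between 10634 and 11556 without tBHP and between 27601 and 39177 with it, and PRDX3 is lower in all 9 tBHP libraries.

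The first question was how the genes responded to tBHP. In PBS cells, 5 of the 10 genes were called higher and 1 lower, against 24.2% and 26.9% of all genes tested (limma, adjusted p under 0.05). Their median log2 change was 0.28, and that of all genes was 0.0043. In cNSF-HA cells 6 were higher and 1 lower, beside 24% and 26.8% of all genes, with medians of 0.48 and -0.00053. In fNSF-HA cells 4 were higher and 1 lower, beside 19.2% and 22.7%, with medians of 0.23 and -0.034. That count of 5 was 8 by edgeR (43.2% of all genes) and without cNSF-HA replicate 3 after tBHP (45%). It was 9 without that library and fNSF-HA replicate 2 after tBHP (55.4%), and it moved less in the other settings. TXNRD1, TXN and PRDX1 rose and PRDX3 fell in each pre-incubation. All changes are on the log2(normalized count + 1) scale, with the standard error and the adjusted p from limma.

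**Figure D3:**
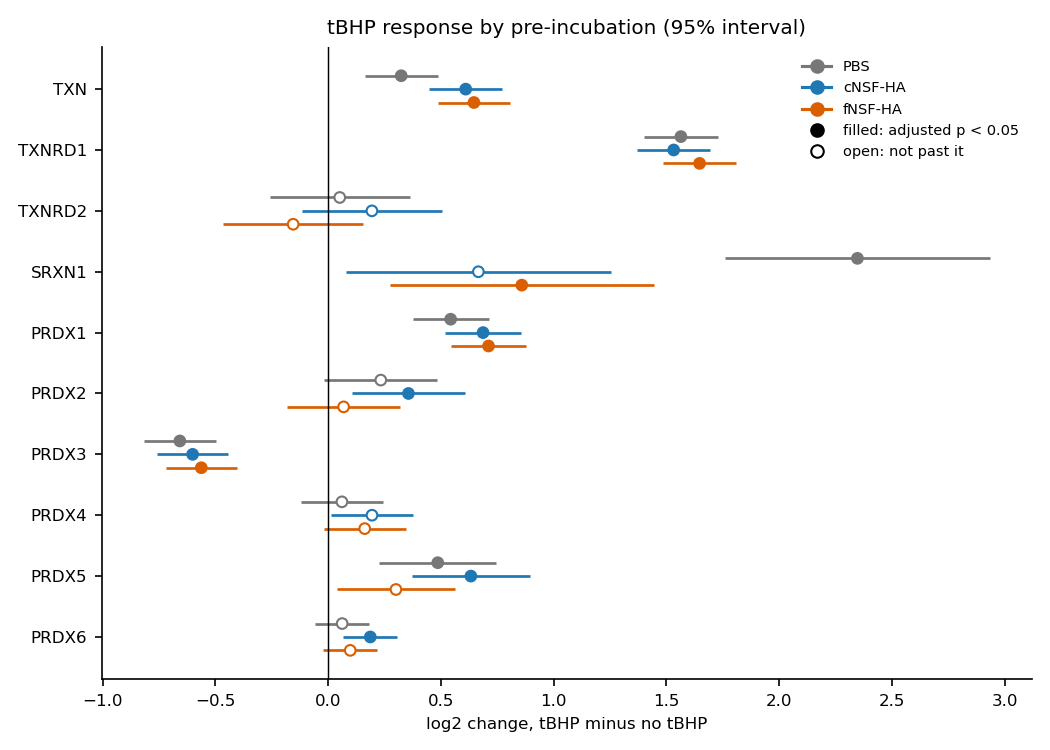
Log2 change from no tBHP to tBHP (horizontal axis) with its 95% interval for each gene and pre-incubation, filled where the adjusted p is under 0.05. TXNRD1 lies between 1.53 and 1.65 in all 3 pre-incubations, while SRXN1 lies at 2.35 after PBS and at 0.67 and 0.86 after HA.

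Thioredoxin, the small protein disulfide reductase of the system, rose after tBHP in every group. TXN (chr9:110243811-110256640) had 4614, 4345 and 4469.8 normalized counts in the PBS replicates and 5439, 5807 and 5570.3 after PBS and tBHP. In cNSF-HA cells it was 4612, 4317 and 4389 before and 6059.9, 6492 and 7904 after. In fNSF-HA cells it was 4402, 4563 and 4392 before and 7283, 6739 and 6903 after. No stressed library overlapped an unstressed one, and all 6 HA libraries after tBHP were above all 3 PBS libraries. The change was 0.32 (SE 0.077, adjusted p 0.00183) with PBS, 0.61 (SE 0.077, adjusted p 4.29e-06) with cNSF-HA and 0.65 (SE 0.077, adjusted p 2.49e-06) with fNSF-HA. The differences between these responses were 0.29 and 0.32 with limma adjusted p of 0.999 and 0.667, so neither passed the test. With the GC and length trend removed, the PBS response was 0.49 (adjusted p 1.19e-07) and the differences were 0.15 (0.769) and 0.15 (0.758).

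TXNRD1, the cytosolic and nuclear thioredoxin reductase whose upstream sequence is printed above, rose about as far in every pre-incubation. It lies at chr12:104215779-104350305. The PBS replicates had 11253, 11216 and 11020.2 normalized counts, and 31629, 33509.8 and 33973 after tBHP. The cNSF-HA replicates went from 11113, 10879.8 and 10634 to 32994, 34199.6 and 27601. The fNSF-HA replicates went from 11344, 11556 and 11472 to 36923, 39177 and 31984. Stressed and unstressed libraries were far apart, and the stressed groups overlapped each other. The fold changes were 2.96, 2.89 and 3.13 (log2 1.56, 1.53 and 1.65, SE 0.077 each, adjusted p 3.3e-11, 4.37e-11 and 1.47e-11). The cNSF-HA response differed from the PBS response by -0.032 (95% interval -0.26 to 0.20) and the fNSF-HA response by 0.083 (-0.15 to 0.31), so differences up to these bounds are compatible with the data.

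The mitochondrial reductase TXNRD2 was not called in any response. Its PBS replicates had 513, 438 and 469.6 normalized counts before and 539, 445 and 489 after tBHP. The cNSF-HA replicates had 520.0, 494 and 513 before and 566, 488 and 715 after. The fNSF-HA replicates had 481, 476 and 461 before and 429, 329 and 542 after. Stressed and unstressed libraries overlapped in all 3 pre-incubations, and the stressed HA libraries were the most spread. The log2 changes were 0.05, 0.19 and -0.15, with adjusted p of 0.792, 0.285 and 0.429. When a fitted dependence on GC content and length of the transcript was first taken out of every library, the change was -0.28 (adjusted p 0.00428) after PBS, -0.16 (0.0953) after cNSF-HA and -0.22 (0.0205) after fNSF-HA.

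PRDX1, which reduces hydrogen peroxide in the cytosol, rose in every pre-incubation. It had 9451, 9300.3 and 8922 normalized counts in PBS cells and 12331, 13794 and 14282 after tBHP. In cNSF-HA cells it was 9629, 9159 and 8935 before and 13481, 14149 and 17248 after, and in fNSF-HA cells 9539, 9122 and 9337 before and 15242, 16151 and 14496 after. No stressed library overlapped an unstressed one. The log2 changes were 0.54, 0.69 and 0.71 (SE 0.080 each), with adjusted p of 2.23e-05, 1.89e-06 and 1.41e-06. PRDX1 was still called in all 3 with the GC and length trend removed, with smaller changes of 0.37, 0.43 and 0.53.

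PRDX2, the close cytosolic relative of PRDX1, moved less. Its PBS replicates had 2061, 2032 and 2056 normalized counts before and 2547, 2241 and 2455 after tBHP. Those of cNSF-HA had 2166, 2032 and 2058 before and 2539, 2472 and 3031 after. Those of fNSF-HA had 2101, 2005 and 2062 before and 2309.7, 1651 and 2629.8 after. The groups did not overlap with PBS or cNSF-HA, and with fNSF-HA replicate 2 lay under all unstressed libraries. The increase was called with cNSF-HA (0.36, SE 0.12, adjusted p 0.0188) and not with PBS (0.23, adjusted p 0.111) or fNSF-HA (0.07, adjusted p 0.678). With the GC and length trend removed the cNSF-HA change was 0.0084 (adjusted p 0.894) and the PBS and fNSF-HA changes were -0.038 and -0.095. The cNSF-HA change was 0.26 (adjusted p 0.1) without cNSF-HA replicate 3 after tBHP. Without fNSF-HA replicate 2 after tBHP, the fNSF-HA change was called at 0.26 (adjusted p 0.012) and the PBS change at 0.23 (0.0102). The PBS change was also called by edgeR (adjusted p 0.0467) and in a fit of only the compared groups (0.00826).

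PRDX3, the mitochondrial peroxiredoxin served by TXN2 and TXNRD2, was the 1 member that fell. It lies at chr10:119167703-119178833. PBS cells had 3296, 3515 and 3479 normalized counts and 1909, 2296 and 2344 after tBHP. Cells with cNSF-HA went from 3247, 3367 and 3333 to 2176, 2124 and 2262, and cells with fNSF-HA from 3603, 3678 and 3498 to 2533, 2551 and 2228. All 9 stressed libraries were under all 9 unstressed ones. The log2 changes were -0.66, -0.60 and -0.56 (SE 0.076 each), with adjusted p of 1.42e-06, 4.4e-06 and 1.09e-05. The decrease in PBS cells was to 0.634 of the unstressed level.

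PRDX4, the peroxiredoxin of the endoplasmic reticulum, was not called. It ranged from 2048 to 2188 normalized counts in PBS cells and from 2025 to 2295 after tBHP. With cNSF-HA it was 2054 to 2168 before and 2136 to 2876 after, and with fNSF-HA 2091 to 2178 before and 2313 to 2417 after. Only the fNSF-HA groups did not overlap. The log2 changes were 0.06, 0.19 and 0.16, with adjusted p of 0.575, 0.0685 and 0.143. The cNSF-HA change was called by edgeR (adjusted p 0.0149) and DESeq2 (0.0481), and the fNSF-HA change by edgeR (0.0427), while with the GC and length trend removed all 3 were under 0 and not called. The cNSF-HA change was 0.068 without replicate 3 after tBHP and 0.28 without replicate 1.

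PRDX5, an atypical peroxiredoxin found in mitochondria, peroxisomes and cytosol, rose in PBS and cNSF-HA cells. The PBS replicates had 1754, 1772 and 1642 normalized counts before and 2728, 2183 and 2359 after tBHP. The cNSF-HA replicates had 1823, 1685 and 1720.4 before and 2457, 2515 and 3195 after. The fNSF-HA replicates had 1764, 1739 and 1721 before and 2324, 1686 and 2522 after. The last of these groups overlapped, since replicate 2 after tBHP was under all 3 unstressed fNSF-HA values. The log2 changes were 0.49 (SE 0.12, adjusted p 0.00327), 0.63 (0.12, 0.000384) and 0.30 (0.12, 0.0594). With the GC and length trend removed they were 0.14, 0.16 and 0.16, all with adjusted p under 0.05, so their size moved with that setting. The fNSF-HA change was also called by edgeR (adjusted p 0.0216) and DESeq2 (0.0354), and it was 0.47 (0.000474) without replicate 2 after tBHP. It was 0.18 without replicate 3 after tBHP, and its adjusted p was 0.161 in a fit of only the compared groups.

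PRDX6, a 1-cysteine peroxiredoxin that glutathione rather than thioredoxin reduces, moved little. It was 6609 to 6763 normalized counts in PBS cells and 6886 to 7103 after tBHP, 6321 to 6539 and 6997 to 8073 with cNSF-HA, and 6655 to 6853 and 7214 to 7270.3 with fNSF-HA. Stressed and unstressed libraries did not overlap within any pre-incubation. The change was called with cNSF-HA (0.19, SE 0.057, adjusted p 0.0105) and not with PBS (0.06, adjusted p 0.373) or fNSF-HA (0.10, adjusted p 0.178). With quantile normalization the cNSF-HA call was lost (0.14, adjusted p 0.0549), and without cNSF-HA replicate 3 after tBHP the change was 0.12. The PBS change was called with the GC and length trend removed (0.098, adjusted p 0.0302), and edgeR called the fNSF-HA change (0.0293).

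SRXN1, the repair enzyme, had the largest log2 change of the 10 genes in PBS cells and smaller ones after HA. The PBS replicates had 6.76, 7.46 and 12.1 normalized counts before and 53.3, 46.8 and 42.7 after tBHP. The cNSF-HA replicates had 19.1, 17.6 and 12.4 before and 22.1, 27.4 and 29.5 after. The fNSF-HA replicates had 11.8, 7.88 and 8.39 before and 13.2, 17 and 23.9 after. No stressed group overlapped its unstressed group, and all 6 HA libraries after tBHP were under all 3 PBS libraries. The change was 2.35 (SE 0.28, adjusted p 2.08e-06) with PBS, 0.67 (SE 0.28, adjusted p 0.0546) with cNSF-HA and 0.86 (SE 0.28, adjusted p 0.0191) with fNSF-HA.

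The difference between the SRXN1 responses was -1.68 (SE 0.39, 95% interval -2.51 to -0.85) for cNSF-HA against PBS and -1.49 (SE 0.39, -2.32 to -0.66) for fNSF-HA against PBS. Neither passed the limma test across all genes, with adjusted p of 0.999 and 0.667 beside unadjusted p of 0.00048 and 0.00142. The fNSF-HA call was lost without a filter on low values (adjusted p 0.0871), in a fit of only those groups (0.0723), without unstressed fNSF-HA replicate 2 (0.0725) or 3 (0.0619), and without stressed fNSF-HA replicate 3 (0.102). The cNSF-HA response was called in 7 alternatives, among them edgeR (0.0286), a pseudocount of 5 (0.0415) and quantile normalization (0.0469). The pooled spread of SRXN1 was 0.34 between unstressed and 0.28 between stressed replicates, against medians of 0.076 and 0.21 over all genes.

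The second question was whether HA alone changed these genes. Without tBHP, none of the 10 genes was called in the fit of all groups in the comparisons of cNSF-HA with PBS, fNSF-HA with PBS and cNSF-HA with fNSF-HA. Of all genes 0% was called in each by limma, which left 126, 109 and 206 genes at an unadjusted p under 0.05, while edgeR called 0, 0 and 0 genes and DESeq2 0, 3 and 0. A limma fit of only the compared groups called 7.16% of genes between cNSF-HA and fNSF-HA, PRDX3 among them (-0.12, adjusted p 0.0182). Other than SRXN1, the members differed by at most 0.12 on the log2 scale. SRXN1 was higher in value with cNSF-HA than with PBS by 0.85 (95% interval 0.26 to 1.43, unadjusted p 0.00719, adjusted p 1), with no overlap of normalized counts, on 12 to 20 reads against 7 to 14. Unstressed SRXN1 was also higher in value with cNSF-HA than with fNSF-HA, by 0.74 (0.16 to 1.33, unadjusted limma p 0.0158), and not called. TXNRD1 with cNSF-HA differed from PBS by -0.04 (-0.20 to 0.12).

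The third question was whether HA changed the stressed level, and whether the length of HA mattered there. None of the 10 genes was called in the main limma fit in the 3 comparisons after tBHP. Of all genes, 0% was called between cNSF-HA and PBS (1183 at an unadjusted p under 0.05, 0 by edgeR and 9 by DESeq2), 0.139% between fNSF-HA and PBS (19 genes, 3102 at an unadjusted p under 0.05, 36 by edgeR and 451 by DESeq2), and 0% between cNSF-HA and fNSF-HA (4412, 0 and 793).

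In SRXN1 and TXN, HA and PBS libraries did not overlap in either comparison with PBS. The share of all genes without overlap was not computed, so this is not read as a result about the members. SRXN1 was lower in value with fNSF-HA than with PBS (log2 difference -1.39, 95% interval -1.97 to -0.80, adjusted p 0.0524). edgeR on the recovered reads gave an adjusted p of 0.0364, and limma in a fit of only those groups gave 0.656. Limma gave 0.0362 with a pseudocount of 5, 0.0499 with a replicate block and 0.0459 with the GC and length trend removed. DESeq2 gave SRXN1 no adjusted p here. With cNSF-HA the difference was -0.83 (-1.42 to -0.25, adjusted p 0.5). TXN was higher in value by 0.32 with fNSF-HA (0.15 to 0.48, adjusted p 0.0755) and by 0.27 with cNSF-HA (0.11 to 0.44, adjusted p 0.45). For fNSF-HA, DESeq2 gave 0.0127, edgeR 0.0877 and the fit of only those groups 0.656. The TXN differences were 0.14 (adjusted p 0.259) with fNSF-HA and 0.17 (0.202) with cNSF-HA once the GC and length trend was removed. Both comparisons use the same PBS libraries.

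**Figure D4:**
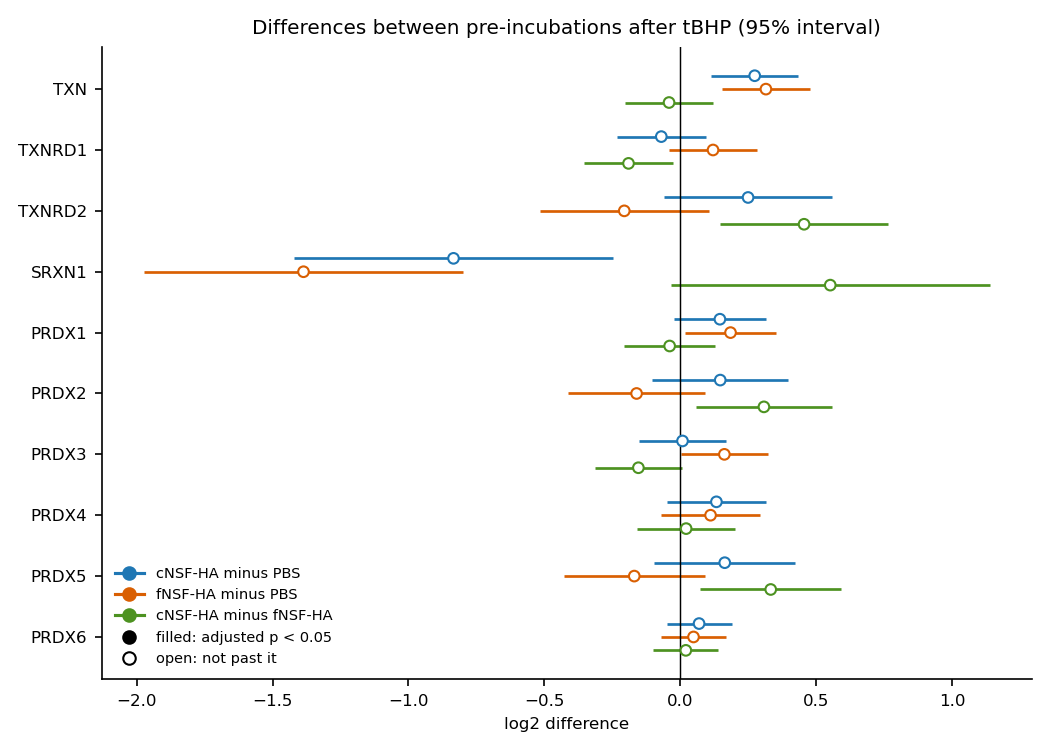
Log2 difference between pre-incubations after tBHP (horizontal axis) with its 95% interval for the 10 genes, open because no adjusted p is under 0.05. SRXN1 lies at -0.83 and -1.39 against PBS, and TXN at 0.27 and 0.32.

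Between cNSF-HA and fNSF-HA after tBHP, the largest differences were in TXNRD2 (0.46, 95% interval 0.14 to 0.77, adjusted p 0.0981) and SRXN1 (0.55, -0.035 to 1.14, adjusted p 0.175). PRDX5 differed by 0.33 (adjusted p 0.102), PRDX2 by 0.31 (0.106) and TXNRD1 by -0.19 (0.113). All 10 genes overlapped between these groups, and the share of all genes that did was not computed. With the GC and length trend removed, the differences were 0.071 in TXNRD2, 0.081 in PRDX2, -0.067 in TXNRD1 and, with the sign turned, -0.081 in PRDX5, and SRXN1 was at 0.45. Without cNSF-HA replicate 3 and fNSF-HA replicate 2 they were 0.12 in TXNRD2, 0.024 in PRDX2, -0.033 in TXNRD1, 0.038 in PRDX5 and 0.45 in SRXN1. Without fNSF-HA replicate 3, 5 members were called here (TXNRD1, TXNRD2, PRDX2, PRDX3 and PRDX5), where 40.8% of all genes were. In fNSF-HA against PBS that setting called 6 (TXN, TXNRD1, TXNRD2, SRXN1, PRDX2 and PRDX3), beside 29.4% of all genes. The differences between tBHP responses were not called for any member in any of the 3 comparisons, and of all genes 0% was called in each (555, 942 and 533 genes at an unadjusted p under 0.05, 0, 0 and 0 by edgeR, 0, 6 and 0 by DESeq2).

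Some stressed libraries differed with GC content. The 20% of genes with the most GC-rich longest transcripts were lower in fNSF-HA replicate 2, by a median deviation of -0.61 from the mean of the stressed libraries, and higher in PBS replicate 1 (0.25) and cNSF-HA replicate 3 (0.25). In the same fNSF-HA library, the most GC-rich members, TXNRD2 (62.6%), PRDX5 (61.5%) and PRDX2 (56.7%), deviated by -0.59, -0.52 and -0.54, and TXN (42.8%), PRDX3 (43.1%) and TXNRD1 (44.8%) by 0.07, 0.17 and 0.23. In cNSF-HA replicate 3 the order was less clear, with TXNRD2 at 0.53, PRDX5 at 0.41 and PRDX2 at 0.33, but also TXN at 0.30, PRDX6 at 0.17, PRDX3 near 0 and TXNRD1 at -0.28. The SRXN1 transcript has 53.6%, and its deviations ran from 0.59 to 0.91 in PBS, from -0.33 to 0.07 in cNSF-HA and from -1.03 to -0.22 in fNSF-HA libraries. With the trend removed, SRXN1 changed by 2.16 after PBS. The trend was fitted at the GC content of the whole SRXN1 transcript. Exon 1, which holds 395 of the 406 bases that belong to SRXN1 alone, has 79.0%. If the row holds only reads of those bases, this setting does not correct them at their own GC content. The part of GC content in the differences between members was not tested.

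**Figure D5:**
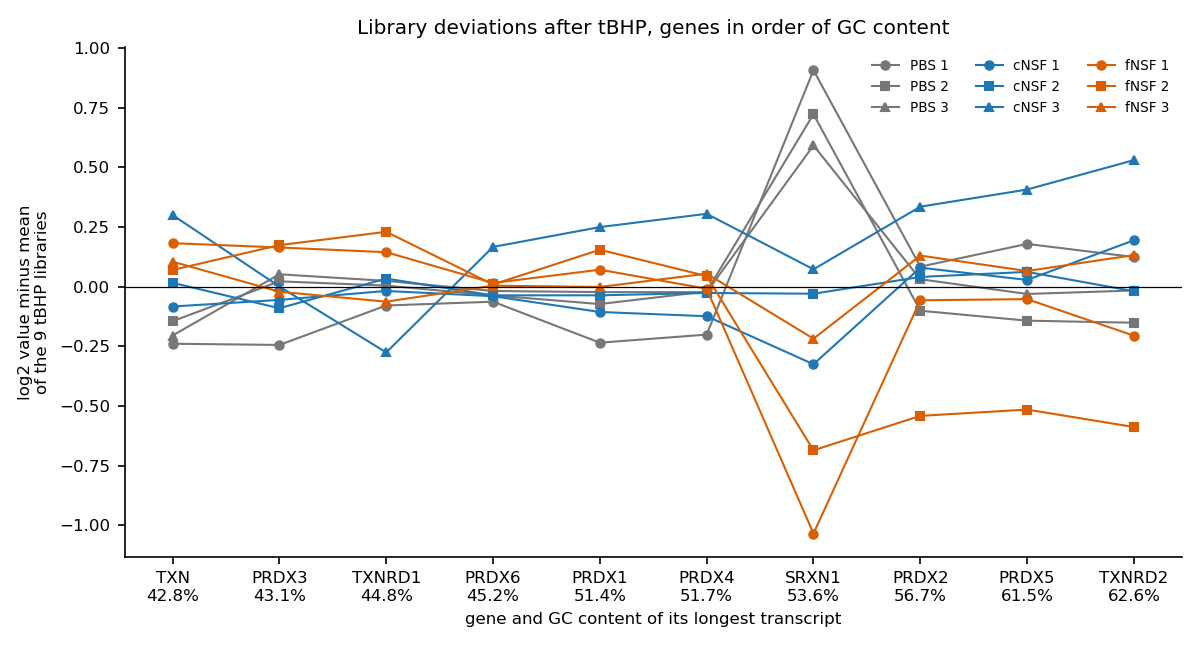
Deviation of each of the 9 tBHP libraries from their mean (log2, vertical axis) for the 10 genes in order of transcript GC content (horizontal axis). fNSF-HA replicate 2 lies at -0.52 to -0.59 in PRDX2, PRDX5 and TXNRD2, and the 3 PBS libraries lie above the rest in SRXN1.

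Other known NRF2 targets were mostly called higher too. Of 15 further NRF2 targets, 14 rose in PBS cells and 15 in cNSF-HA and in fNSF-HA cells, none fell, beside 24.2%, 24% and 19.2% of all genes called higher, and the medians were 1.29, 1.33 and 1.34, against 0.0043, -0.00053 and -0.034 for all genes. The 1 not called was GCLC, a subunit of the enzyme that starts glutathione synthesis (0.17, adjusted p 0.143). HMOX1, which degrades heme, went from 5892 ± 227 to 45959 ± 3885 normalized counts in PBS cells (log2 change 2.96, adjusted p 3.26e-13). AKR1C1, an aldo-keto reductase, went from 85.7 ± 13.4 to 906 ± 110 (3.39, 1.52e-12), and OSGIN1, an oxidative stress-induced growth inhibitor, changed by 3.20 (1e-10). AKR1B10 changed by 3.54 (4.21e-09), from 8.29 ± 2.52 to 105 ± 7.38. Of 6 genes for NRF2 and its controllers, 4 rose in each pre-incubation and 1 fell in PBS cells, beside the same shares higher and 26.9% lower in PBS cells, and their medians were 0.72, 0.73 and 0.67. SQSTM1, which binds the NRF2 repressor KEAP1, rose by 2.15 (2.57e-11) in PBS cells, MAFG, a partner of NRF2 on DNA, by 1.46 (1.36e-10), KEAP1 by 0.78 (4.26e-05) and NFE2L2, which encodes NRF2, by 0.66 (1.95e-06). The same 4 were called with cNSF-HA and with fNSF-HA. CUL3, the ubiquitin ligase scaffold that works with KEAP1, changed by -0.26 in PBS cells (0.0301), and by 0.19 with the GC and length trend removed. Of the 15 targets, 1 was called between pre-incubations, ME1, a malic enzyme that makes NADPH, which was higher with fNSF-HA than with PBS after tBHP (0.36, adjusted p 0.0433), a call kept in 12 of 30 alternatives. With the GC and length trend removed, the ME1 difference was 0.14 and the KEAP1 change in PBS cells 0.48. GCLC, CUL3 and ME1 were named after their values were seen.

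The genes most like a member were those with the smallest root mean square difference in log2 values, centred per gene, over the 18 libraries. For TXNRD1 they were SLC6A6, a taurine transporter, at 0.085, MT-RNR2, a mitochondrial ribosomal RNA, at 0.096 and PSAT1, an enzyme of serine synthesis, at 0.098. SLC6A6 changed by 1.75, 1.57 and 1.69 in PBS, cNSF-HA and fNSF-HA cells. For SRXN1 the nearest were JUND at 0.41, IRF2BPL at 0.44 and SYN1 at 0.44, so no gene followed it as closely, and the few reads of SRXN1 limit any likeness.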

How the data were processed

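RNA of IMR90 cells was sequenced in 6 groups of 3 libraries (single-end reads of 100 nt). Per the submitters' processing notes, reads were handled with Trimmomatic 0.32, STAR 2.5.2b and featureCounts of Subread 1.5.0-p3 on GRCh38.p7. The annotation release and the counting options are not given in the sources used here. The deposited signal is the read count per gene divided by a size factor of the library, computed by the authors with DESeq2 and called normalized count here. All values (100%, tolerance 0.1 read) came back to whole reads. The deposited p-value and q-value columns hold the authors' comparisons and were not used.

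Log2 values (pseudocount 1) of the 13686 genes with a mean of at least 10 were fitted with limma 3.58.1 in R 4.3.3, with 1 coefficient per group, a mean-variance trend, two-sided tests and Benjamini-Hochberg adjustment over all genes (threshold 0.05). The 12 comparisons were 3 tBHP responses, 6 between pre-incubations and 3 differences of responses. edgeR 4.0.16 and DESeq2 1.42.0 were run on the recovered reads. The scripts were tested on simulated data. Exons came from GENCODE 29 and promoters from RefSeq. The members and lists were chosen with earlier results of these data known. Genes were named as members of the set, for the lists by the largest changes past the threshold (up to 4 a list), and as the 3 most alike to TXNRD1 and SRXN1. Libraries held 20261103 to 26287660 reads. Between replicates the chi-square per degree of freedom was 1.45 to 64.8, and no pair was identical. An overlap of 1 member with another gene is not reported here.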

Additional observations from a re-analysis of the deposited data

How the results depend on the processing

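The counts of members called and the changes of members and listed genes were recomputed with pseudocounts of 0.1 and 5, no filter, a minimum mean of 50, other scalings, edgeR, DESeq2, only the compared groups, a replicate block, the GC and length trend removed, and each library left out. Leaving out cNSF-HA replicate 3 and fNSF-HA replicate 2 after tBHP together was chosen after seeing the data. Of 897 values for the 30 changes of members with tBHP, 842 kept direction and call, 33 became called in the same direction, 10 lost the call and 12 turned sign, 1 of which was then called (TXNRD2 in PBS cells with the GC and length trend removed, adjusted p 0.00428). TXN, TXNRD1, PRDX1 and PRDX3 kept their calls throughout. SRXN1 fell under the minimum mean of 50 and had no value there. The levels per kb and the most alike genes were not recomputed. Over all genes, the change per gene shifted by a median of at most 0.043 with another scaling and 0.068 with edgeR.

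For fNSF-HA, 8 members were called by edgeR and 9 without both libraries, against 5, and 4 to 8 with 1 library left out (8 without cNSF-HA replicate 3 after tBHP). In those fits 43.2%, 55.4% and 45% of all genes were called. For fNSF-HA against PBS after tBHP, where limma called none, 1 member was called with a pseudocount of 5, by edgeR, with the replicate block and with the GC trend removed (SRXN1, adjusted p 0.0362, 0.0364, 0.0499 and 0.0459) and 1 by DESeq2 and without both libraries (TXN, 0.0127 and 0.0201), with 0 to 6 when 1 library was left out. Those settings called 0.161% to 3.99% of all genes, and the 6 without fNSF-HA replicate 3 stand beside 29.4%. DESeq2 gave SRXN1 no adjusted p in the comparisons between pre-incubations after tBHP. The range was 0 to 5 for cNSF-HA against fNSF-HA after tBHP, with 5 without fNSF-HA replicate 3, beside 40.8%. A fit of only the compared groups called 1 member, PRDX3, in unstressed cNSF-HA against fNSF-HA cells (-0.12, adjusted p 0.0182), beside 7.16% of all genes.

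With the GC and length trend removed (12528 of 13686 genes, 91.5%), the sign turned for TXNRD2 in PBS (-0.28) and cNSF-HA cells (-0.16), for PRDX2 in PBS (-0.038) and fNSF-HA cells (-0.095), and for PRDX4 in PBS (-0.12), cNSF-HA (-0.077) and fNSF-HA cells (-0.027). The cause was not tested. With 1 library left out, TXNRD2 ranged from -0.017 to 0.12 in PBS cells, from 0.047 to 0.32 in cNSF-HA cells and from -0.33 to 0.029 in fNSF-HA cells (0.029 also without both libraries). PRDX2 ranged from -0.074 to 0.26 in fNSF-HA cells.

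Same-numbered replicates correlated at -0.12 to 0.33 over 45 pairs of libraries, 7 of them over 0.1, so the numbers were not taken to pair samples. With the replicate block, the members called in the tBHP responses were those of the main fit, with PRDX5 added in fNSF-HA cells (adjusted p 0.0417). SRXN1 had the fewest reads of the members, 7 to 47 a library.

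Among the NRF2 targets, 13 to 15 were called higher and 0 lower in every alternative and pre-incubation. The thioredoxin-fold relatives ranged from 2 to 6 higher and 3 to 6 lower in PBS cells. TXNDC9 and ME1 between fNSF-HA and PBS were each called in 12 of 30 alternatives, MAP3K5 in PBS cells in 14 of 30 and TXNDC5 in 24 of 29. With the GC and length trend removed, CUL3 in PBS cells was 0.19 and SECISBP2 in cNSF-HA cells 0.013, both with the sign turned.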

Other observations

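Other thioredoxin-related genes had medians near 0 after tBHP. The 18 thioredoxin-fold relatives were split in PBS cells (6 higher, 6 lower), with 6 against 2 for cNSF-HA and 3 against 1 for fNSF-HA, and their medians were -0.0065, 0.035 and 0.037 on the log2 scale. Of all genes, 24.2%, 24% and 19.2% were called higher and 26.9%, 26.8% and 22.7% lower in the same 3 responses. TXNIP, an inhibitor of thioredoxin, went from 1204 ± 19.5 to 1914 ± 181 normalized counts in PBS cells (log2 change 0.66, SE 0.079, limma adjusted p 1.99e-06) and changed by 0.44 and 0.78 with cNSF-HA and fNSF-HA. In PBS cells TXNL4B changed by 0.65 (adjusted p 3.62e-05) and GLRX5, a mitochondrial glutaredoxin of iron-sulfur cluster assembly, by -0.56 (2.58e-05), and both were called in the same direction with cNSF-HA and fNSF-HA. TXNDC5, a disulfide isomerase, changed by 0.63 (0.0223) in PBS cells and was not called with cNSF-HA (0.44, adjusted p 0.106) or fNSF-HA (0.077, adjusted p 0.808). TXNDC9 was the 1 relative called between pre-incubations. It was higher with fNSF-HA than with PBS after tBHP (0.47, adjusted p 0.0433), called in 12 of 30 alternatives, and its change in PBS cells was -0.46 (0.000288, and -0.11 with the GC and length trend removed).

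A further list held 8 genes for enzymes that thioredoxin serves, with their subunits, and for a kinase it binds. Both PBS and cNSF-HA cells had 2 of these genes higher and 3 lower. In fNSF-HA cells there were 1 and 3, close to those shares of all genes. MSRB3, a methionine sulfoxide reductase, changed by -0.70 in PBS cells (adjusted p 6.57e-07), MSRA, which reduces the other stereoisomer, by 0.39 (0.00938, not called with fNSF-HA at 0.26, adjusted p 0.0774), the ribonucleotide reductase subunit RRM2B, a p53 target, by 0.68 (0.000526), and MAP3K5, the kinase ASK1 that thioredoxin holds inactive, by -0.22 (0.0438). With the GC and length trend removed, RRM2B changed by 1.18 in PBS cells. RRM2, another ribonucleotide reductase subunit, changed by -0.21, -0.20 and -0.21 with PBS, cNSF-HA and fNSF-HA (0.00421, 0.00741 and 0.00529). For 7 genes of selenocysteine insertion, the count of higher and lower calls was 1 and 0 with PBS, 2 and 1 with cNSF-HA, and 1 and 1 with fNSF-HA, near or under those shares. SEPHS2, which makes the selenium donor for selenocysteine, changed by 0.57, 0.65 and 0.58 in the 3 pre-incubations (adjusted p 3.62e-06, 9.85e-07 and 4.14e-06). TRNAU1AP was the other selenocysteine insertion gene called higher with cNSF-HA (0.28, 0.0202), SECISBP2 the 1 called lower there (-0.28, 0.00942) and EEFSEC the 1 called lower with fNSF-HA (-0.48, 0.0092). With the GC and length trend removed, the TRNAU1AP change with cNSF-HA was 0.041 and not called. TXNDC9, RRM2, TRNAU1AP, SECISBP2 and EEFSEC were named after their values were seen.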
